A study of Homo sapiens with 12 samples.

Results

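The S100 proteins are small calcium-binding proteins, and 10 of their genes were followed here in human breast cancer cells: S100A2, S100A3, S100A4, S100A6, S100A8, S100A9, S100A10, S100A13, S100A16 and S100P. Each was read from the probe set whose only platform gene symbol is that gene, and each of the 10 had 1 such probe set, among 18417 genes in all. Earlier results of the same data were known when these genes were chosen, so the choice may not be independent of these arrays.

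S100 proteins carry a pair of EF-hand loops, helix-loop-helix folds that hold calcium, and mostly act as dimers. On binding calcium they expose a surface that docks onto other proteins such as annexins, myosins and cytoskeletal regulators. Some are also secreted and act on cell surface receptors. In breast cancer S100A4 is known for its tie to cell motility and metastasis, and S100A8 with S100A9 is known as the calprotectin pair of myeloid cells.

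The cells were labelled as the 1833 subline of MDA-MB-231, a line derived from a basal-type human breast cancer and known for its spread to bone. Control cells (3 arrays) were compared with cells carrying an shRNA against HMGA2, a chromatin protein (shHMGA2, 3 arrays), and with cells labelled as expressing induced Tet1, an enzyme that oxidises methylcytosine in DNA, or induced HOXA9, a homeobox factor. The Tet1 and HOXA9 groups had 3 columns each, of which replicate 3 equalled the mean of replicates 1 and 2 in 33297 of 33297 probe sets within 1e-06, so 2 arrays of each group were used. The shRNA came in a lentiviral vector with puromycin selection, and the inducible lines carried a Flag-Tet1 or HOXA9 construct with the Tet-On 3G regulator under puromycin and G418. Their medium held Tet-approved serum, so serum and selection may differ from control together with the construct. The sources used here give no vector or selection for the control cells, no inducer and no word on clones or pools. For Tet1 and HOXA9 the source field reads 1834 where titles read 1833, and 1 subline was assumed. The series asks which genes HMGA2, Tet1 and HOXA9 regulate in these cells.

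All 8 measured basal markers, VIM and CD44 among them, lay above the 30th percentile of all probe set values (6.22 on the log2 scale) in the 4 groups. This level serves as the line under which a probe set is not known to be above background, since the values come without detection calls. Of 8 luminal markers 4 were under that line in control and in shHMGA2, and 2 in Tet1 and in HOXA9. ESR1, the oestrogen receptor gene, was at 6.05 in control, 6.95 in Tet1 and 6.96 in HOXA9. SPDEF and EPCAM were above the line in control, at 8.95 and 8.25. The arrays fell into a pair of sets. Over all probe sets, control and shHMGA2 arrays correlated at 0.986 to 0.998, Tet1 with HOXA9 arrays at 0.993 to 0.997, and arrays of different sets at 0.945 to 0.966. Array medians were 7.21 to 7.28 in the former set and 7.66 to 7.71 in the latter. No group lies in both sets, so array set and group cannot be told apart in the comparisons of Tet1 or HOXA9 with control. Of the targets, HMGA2 was read only by a probe set shared with ELAC2 (mean 9.56 in control, 8.81 in shHMGA2). HOXA9 had no listed probe set and was not analysed here. TET1 was at 7.07 in the arrays labelled Tet1 against 7.30 in those labelled HOXA9 and 6.56 in control, so its level does not set the Tet1 label apart from HOXA9. Whether the probe set reads the construct was not tested, and Tet1 and HOXA9 stand below for the arrays so labelled. TET1 was at 8.97 in shHMGA2.

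The starts of 5 of the genes are shown because S100A4, S100A6, S100A3 and S100A10 fell together in shHMGA2 while S100A9 was not called there. Each is the stretch of 250 bases before the RefSeq start (GRCh38.p14), 5′ to 3′ on the gene's strand, with CG dinucleotides, the sites of DNA methylation, in capitals. S100A4 lies at chr1:153545807-153546056 (minus strand), S100A6 at chr1:153535992-153536241 (minus), S100A3 at chr1:153549259-153549508 (minus), S100A10 at chr1:151993860-151994109 (minus) and S100A9 at chr1:153357604-153357853 (plus).
S100A4: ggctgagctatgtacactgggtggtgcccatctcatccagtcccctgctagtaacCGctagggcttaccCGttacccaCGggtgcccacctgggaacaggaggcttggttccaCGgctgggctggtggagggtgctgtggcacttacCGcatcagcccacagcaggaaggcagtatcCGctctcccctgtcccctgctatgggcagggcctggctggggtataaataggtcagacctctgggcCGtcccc
S100A6: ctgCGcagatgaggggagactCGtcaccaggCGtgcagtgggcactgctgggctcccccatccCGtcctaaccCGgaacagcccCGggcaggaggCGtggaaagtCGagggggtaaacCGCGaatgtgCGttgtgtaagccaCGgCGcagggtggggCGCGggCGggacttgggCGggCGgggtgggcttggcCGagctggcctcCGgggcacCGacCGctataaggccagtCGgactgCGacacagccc
S100A3: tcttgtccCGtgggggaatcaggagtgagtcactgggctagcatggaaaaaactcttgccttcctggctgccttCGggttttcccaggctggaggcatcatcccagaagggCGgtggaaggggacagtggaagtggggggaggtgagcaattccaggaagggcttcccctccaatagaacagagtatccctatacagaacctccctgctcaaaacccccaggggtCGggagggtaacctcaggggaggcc
S100A10: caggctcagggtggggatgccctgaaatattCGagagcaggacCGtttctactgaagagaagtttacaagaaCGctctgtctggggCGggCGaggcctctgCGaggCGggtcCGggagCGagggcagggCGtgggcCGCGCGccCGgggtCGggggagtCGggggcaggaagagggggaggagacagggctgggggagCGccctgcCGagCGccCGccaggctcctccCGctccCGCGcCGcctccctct
S100A9: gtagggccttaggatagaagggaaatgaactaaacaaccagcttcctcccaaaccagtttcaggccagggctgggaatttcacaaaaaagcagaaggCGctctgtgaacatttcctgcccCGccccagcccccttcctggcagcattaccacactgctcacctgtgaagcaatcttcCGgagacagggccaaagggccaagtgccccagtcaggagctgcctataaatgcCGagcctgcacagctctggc

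The stretches differ in their CG content. S100A6 and S100A10 hold 24 each, S100A4 7, and S100A3 and S100A9 4 each, against a median of 11 (quartiles 3 and 23) over 35116 RefSeq starts. The genes that fell together thus cover both CG-rich and CG-poor starts. All 10 genes had at least 1 start in the RefSeq table and several starts were scanned where listed. A gene counts once if any of its starts, up to 3, holds the letters. The shares beside the counts are of single starts, so the bases of count and share differ. The letters TATAAA, known as a core promoter element, occur on either strand in 5 of 10 genes (S100A4, S100A8, S100A9, S100A13 and S100P), against 10.7% of all starts, and begin 31 bases before the start in S100A4 and 29 in S100A9. The AP-1 letters TGANTCA occur in 2 genes, S100A2 and S100A3, against 6.57% of starts. The PBX-HOX letters TGATTNAT were found in 0 of 10 genes and in 2.48% of starts. The motifs were searched on both strands and do not overlap each other in these windows. Such matches describe letters only.

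In shHMGA2 cells 6 of the 10 genes fell and 0 rose: S100A3, S100A4, S100A6, S100A16, S100P and S100A10. Over all genes 12.6% were called lower and 13.6% higher, 26.2% in either direction (limma, Benjamini-Hochberg adjusted p under 0.05). Of 11 other S100 genes measured, 2 fell and 0 rose. The median of the 10 differences was -0.40 on the log2 scale, beside -0.03 for all genes tested. The groups did not overlap for the same 6 genes, each lower in shHMGA2, where 21.7% of all genes did not overlap with shHMGA2 lower and 18.8% with it higher. The labels call the arrays biological replicates without saying what was cultured apart, so p-values measure the spread between these arrays, whose small number limits the precision. In bulk RNA, fewer cells that express a gene and less RNA per cell cannot be told apart.

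**Figure D1:**
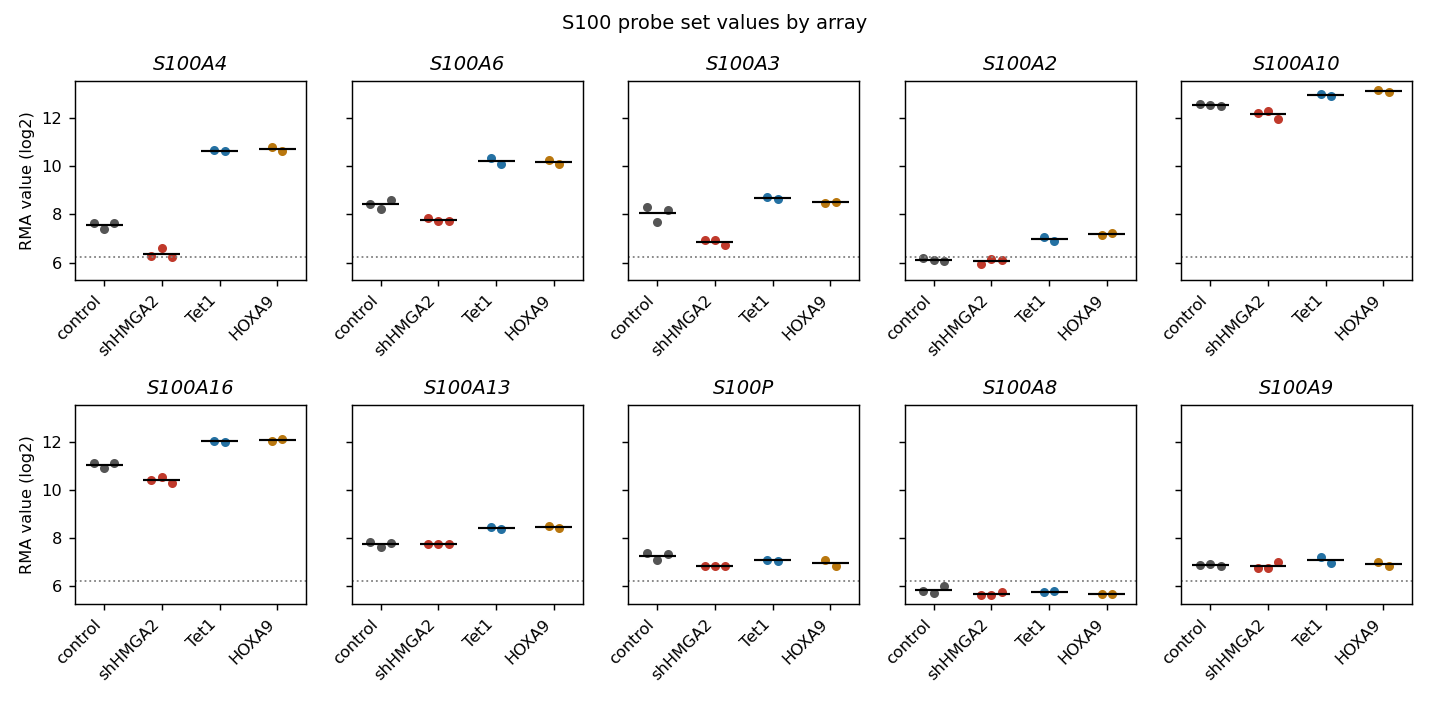
RMA values (log2, y axis) of the 10 S100 genes in control (3 arrays), shHMGA2 (3), Tet1 (2) and HOXA9 (2) cells; points are arrays, short lines group means and the dotted line the 30th percentile of all values (6.22). S100A4 runs from 6.24 in shHMGA2 to 10.82 in HOXA9, while S100A8 stays under the dotted line in every array.

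S100A4 binds non-muscle myosin and is the family member most tied to motility. Its log2 values were 7.63, 7.39 and 7.64 in control arrays and 6.26, 6.61 and 6.24 in shHMGA2 arrays. Every shHMGA2 array thus lay below every control array, and the shHMGA2 arrays were close to the 6.22 line. S100A4 fell 2.27-fold (log2 -1.18, SE 0.10, 95% confidence interval -1.41 to -0.96, limma adjusted p = 8.7e-06, n = 3 each). In the Tet1 arrays its values were 10.70 and 10.62, and in the HOXA9 arrays 10.82 and 10.64. These 4 arrays lay far above all control arrays. The differences from control were 3.11 for Tet1 (8.61-fold, SE 0.11, limma adjusted p = 2.5e-09) and 3.18 for HOXA9 (9.04-fold, SE 0.11, adjusted p = 2e-09), both compared across the array sets.

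S100A6, or calcyclin, binds the ubiquitin ligase partner CACYBP and annexins. Control arrays read 8.42, 8.25 and 8.58, and shHMGA2 arrays 7.85, 7.73 and 7.71, without overlap. The fall was 0.65 on the log2 scale (log2 -0.65, SE 0.09, limma adjusted p = 0.00039). The Tet1 arrays were at 10.34 and 10.09 and the HOXA9 arrays at 10.26 and 10.08, higher than control by 1.80 and 1.75 (3.48-fold and 3.37-fold, limma adjusted p = 5.8e-08 and 8.2e-08).

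S100A3, a cysteine-rich protein known from the hair cuticle, has its gene beside that of S100A4. It read 8.31, 7.68 and 8.17 in control and 6.93, 6.94 and 6.71 in shHMGA2. Control replicate 2 was the low one of its group, and still above all shHMGA2 arrays. S100A3 fell 2.29-fold (log2 -1.19, SE 0.13, limma adjusted p = 5.8e-05). Tet1 arrays were at 8.74 and 8.63 and HOXA9 arrays at 8.49 and 8.53. Those 4 arrays lay above all control arrays, by 0.63 and 0.45 on average (limma adjusted p = 0.0019 and 0.014), where the control SD was 0.33 (n = 3). The HOXA9 call was lost without HOXA9 replicate 1 or 2 (adjusted p = 0.055 and 0.073), and without control replicate 2 the difference was 0.27.

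S100A2, which binds p53 and is often silenced in breast tumours, was under the 6.22 line in all control and shHMGA2 arrays, so it is not known to be above background there and differences against those groups have no firm size. It was at 6.20, 6.10 and 6.06 in control and at 5.95, 6.16 and 6.11 in shHMGA2. These groups overlapped, and the difference of -0.05 was not called (95% confidence interval -0.20 to 0.11). Tet1 arrays read 7.05 and 6.88 and HOXA9 arrays 7.13 and 7.23, all above control, by 0.84 and 1.06 (limma adjusted p = 1.9e-06 and 4.1e-07).

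S100A10, or p11, has lost calcium binding and pairs with annexin A2 at the plasma membrane. Its values were 12.59, 12.54 and 12.49 in control, 12.22, 12.29 and 11.98 in shHMGA2, 13.001 and 12.94 in Tet1 and 13.17 and 13.10 in HOXA9. The 4 groups did not overlap. It fell by 0.38 in shHMGA2 (SE 0.08, limma adjusted p = 0.0035) and was higher than control by 0.43 in Tet1 and 0.60 in HOXA9 (adjusted p = 0.00062 and 5.1e-05). ANXA2, picked out after its values were seen, differed from control by -0.23 in shHMGA2, 0.53 in Tet1 and 0.61 in HOXA9, all called by limma on the deposited values. With quantile normalization ANXA2 was at 0.29 in Tet1 and 0.34 in HOXA9, both called, and with equal array medians at 0.07 and 0.15, neither called.

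S100A16 is a widely expressed member. It read 11.11, 10.90 and 11.14 in control, 10.41, 10.53 and 10.31 in shHMGA2, 12.06 and 12.02 in Tet1 and 12.03 and 12.14 in HOXA9. Only Tet1 and HOXA9 arrays overlapped. The difference from control was -0.64 in shHMGA2 (SE 0.08, limma adjusted p = 0.00012), 0.99 in Tet1 and 1.03 in HOXA9 (adjusted p = 9.5e-07 and 7.9e-07). S100A13, which takes part in the release of FGF1 and IL-1 alpha, read 7.84, 7.63 and 7.78 in control and 7.77, 7.75 and 7.75 in shHMGA2. The difference of 0.01 was not called (95% confidence interval -0.13 to 0.14), although with quantile normalization or equal array medians its sign turned. Its values were 8.46 and 8.39 in Tet1 and 8.52 and 8.42 in HOXA9, higher than control by 0.68 and 0.72 (adjusted p = 3.7e-06 and 2.6e-06).

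S100P, whose gene lies on chromosome 4 apart from the others, binds ezrin and is raised in many carcinomas. Control arrays read 7.39, 7.08 and 7.36 and shHMGA2 arrays 6.85, 6.85 and 6.83, and S100P fell by 0.43 (SE 0.09, limma adjusted p = 0.004). Tet1 arrays were at 7.11 and 7.04 and HOXA9 arrays at 7.10 and 6.83, overlapping control. The difference from control was -0.20 in Tet1, not called (adjusted p = 0.087), and -0.31 in HOXA9 (adjusted p = 0.015). The Tet1 difference was called without control replicate 2 (adjusted p = 0.0093), and the HOXA9 call was lost without control replicate 1 (adjusted p = 0.052) or HOXA9 replicate 2 (difference -0.17).

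S100A8 and S100A9 form calprotectin, a metal-binding alarmin. S100A8 was under the 6.22 line in every array, at 5.81, 5.73 and 6.02 in control, 5.65, 5.64 and 5.74 in shHMGA2, 5.75 and 5.79 in Tet1 and 5.67 and 5.68 in HOXA9. It is thus not known to be above background in any group, and with the filter on dim probe sets it is the 1 gene of the 10 that drops out. Its difference of -0.18 in shHMGA2 was not called (adjusted p = 0.095) and was called without control replicate 2 (adjusted p = 0.038). In HOXA9 the difference of -0.18 was likewise not called (adjusted p = 0.060) and was called without that control array (adjusted p = 0.019). S100A9 read 6.87, 6.94 and 6.83 in control, 6.76, 6.77 and 7.01 in shHMGA2, 7.22 and 6.95 in Tet1 and 7.01 and 6.83 in HOXA9. No limma comparison with control called it on the deposited values (differences -0.03, 0.20 and 0.04, adjusted p = 0.84, 0.08 and 0.72). The Tet1 difference was called without Tet1 replicate 2 (0.34, adjusted p = 0.023) or without shHMGA2 replicate 3 (adjusted p = 0.049). Of 11 measured myeloid and granulocyte markers, 0 were higher in shHMGA2 and 1, CD14, was lower. Over all genes 13.6% were called higher and 12.6% lower there. PTPRC, the pan-leukocyte marker, was under the line at 4.91 in control, 4.89 in shHMGA2, 5.22 in Tet1 and 5.21 in HOXA9. Of the 11 markers 5 were under the line in control and in shHMGA2, while others such as TYROBP (8.27 in control) were above it.

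**Figure D2:**
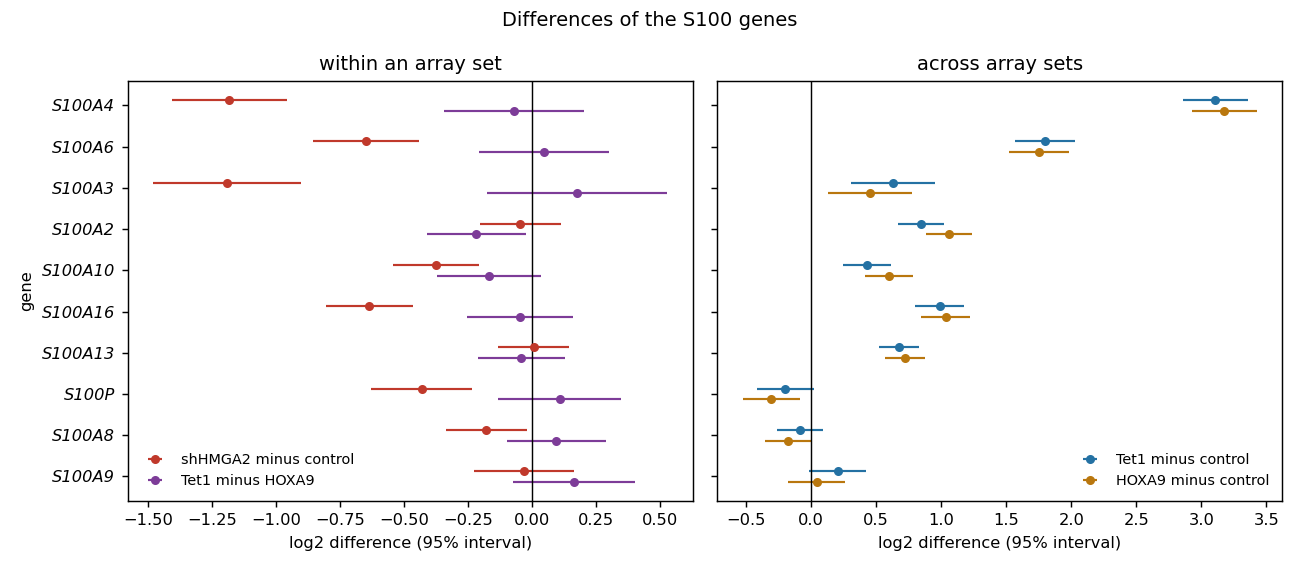
Log2 differences (x axis) of the 10 genes with 95% intervals from limma; the left panel compares groups within an array set, the right panel across the sets. In shHMGA2 the intervals of 6 called genes lie below 0, and between Tet1 and HOXA9 no difference was called.

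The fall in shHMGA2 was measured in arrays in which some markers of the embryonic kidney line HEK293 stood higher. Of 9 such genes 5 rose and 0 fell, where 13.6% of all genes were called higher. With quantile normalization 4 rose. The list was chosen with earlier results of these data known, so its count is not independent of them. HOXD10 rose by 4.47, from 5.95 in control, under the 6.22 line, to 10.42, and NEFM rose by 1.65. PAX2, LHX1, CDH6 and TFAP2B were at -0.09, 0.10, -0.12 and -0.11 and were not called. The summed level of the 9 genes (log2 of the summed linear values) was 9.96 to 10.1 in control and 11.4 to 11.7 in shHMGA2. Of the 9, 3 and 2 were under the 6.22 line. The sum follows mainly HOXD10, the gene with the largest difference, and does not describe the list evenly. Over the same arrays 6 of 8 basal markers fell and 0 rose, where 12.6% of all genes were called lower. The part of these shifts in the S100 differences was not tested. The 6 falls remained called under each alternative scaling, with the replicate block and without any single array.

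Between the arrays labelled Tet1 and HOXA9, which share a set, limma called 0 of the 10 genes, against 0.434% of all genes (0.114% higher and 0.320% lower in Tet1), and 1, S100A2, had an unadjusted p under 0.05. S100A2 was 0.22 lower in Tet1 (95% confidence interval -0.41 to -0.02, adjusted p = 0.47) and S100A10 0.17 lower (interval -0.37 to 0.04). The intervals for S100A4 (-0.34 to 0.20) and S100A6 (-0.21 to 0.30) leave room for differences of 0.17 in either direction. The groups did not overlap for 4 genes, S100A2, S100A3, S100A8 and S100A10, where 20.8% of all genes did not overlap with Tet1 higher and 20.5% with Tet1 lower.

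Against control, 7 of the 10 genes were higher in Tet1 and 0 lower, where 53.9% of all genes were called higher and 23.2% lower, 77.1% in all. The groups did not overlap for 8 of the 10, all higher in Tet1, where 58.5% of all genes did not overlap with Tet1 higher and 27.2% with it lower. In HOXA9 7 were higher and 1 lower, S100P, where 54.0% were called higher and 21.6% lower, 75.7% in all. Here too 8 did not overlap, 7 higher and S100A8 lower, where 57.8% of all genes did not overlap with HOXA9 higher and 25.1% with it lower. These shares stand beside a shift of the whole table between the sets: the median of all genes lay 0.25 above control in Tet1 and 0.24 in HOXA9. Both comparisons share the control arrays. After one quantile normalization over the 10 arrays that median was 0.00 and -0.02, and equal array medians put it at -0.22 and -0.21.

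**Figure D3:**
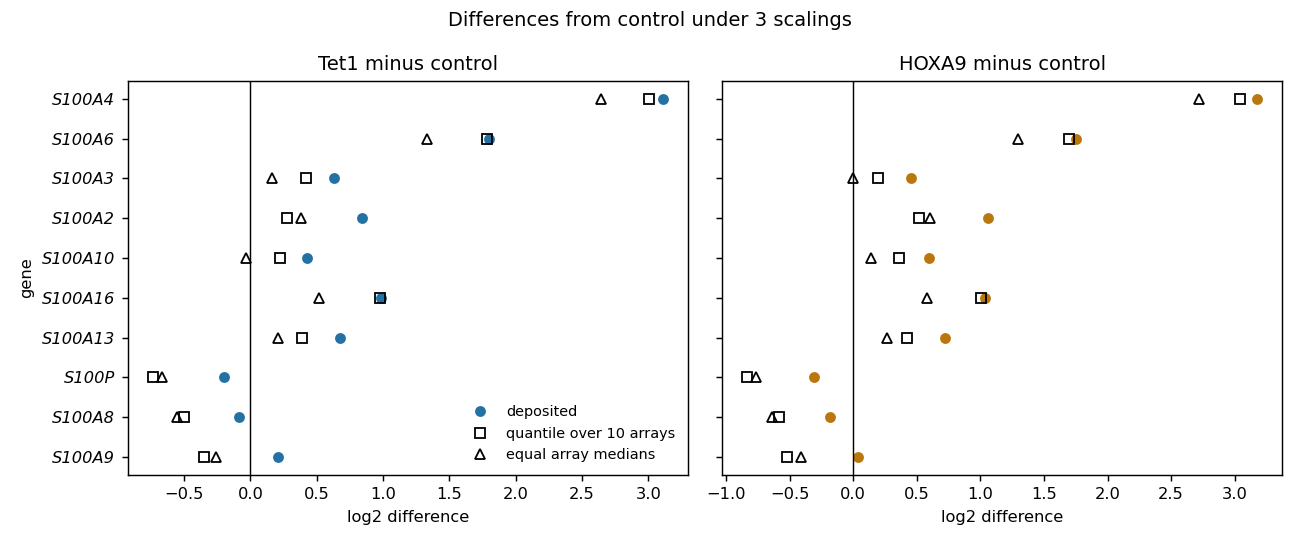
Log2 differences from control (x axis) of the 10 genes in Tet1 (left) and HOXA9 (right) on the deposited values, after quantile normalization over 10 arrays and with equal array medians. S100A4 and S100A6 stay above 1 under all 3 scalings, S100A9 crosses 0.

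Under these scalings S100A4 remained higher by 3.01 and 2.64 in Tet1 and by 3.04 and 2.72 in HOXA9 (quantile and equal medians in turn), and S100A6 by 1.78 and 1.33 in Tet1 and 1.70 and 1.30 in HOXA9. S100A16 was at 0.98 and 0.52 in Tet1 and 1.01 and 0.58 in HOXA9, and S100A13 at 0.39 and 0.21 and at 0.43 and 0.26. S100A4, S100A6, S100A16, S100A13 and S100A2 were thus called higher in both groups whichever scaling was used, by smaller amounts for S100A2 (0.28 and 0.38 in Tet1, 0.51 and 0.61 in HOXA9) and S100A13. The calls of S100A3 and S100A10 depended on the scaling. S100A3 was at 0.42 and 0.16 in Tet1 and at 0.20 and 0.00 in HOXA9, and S100A10 at 0.22 and -0.04 in Tet1 and at 0.36 and 0.14 in HOXA9. With equal medians both were not called in either group.

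S100P, S100A8 and S100A9 were called lower under both scalings. S100P was at -0.73 and -0.67 in Tet1 and at -0.83 and -0.76 in HOXA9. S100A8 was at -0.50 and -0.55 in Tet1 and at -0.58 and -0.64 in HOXA9. S100A9 was at -0.35 and -0.26 in Tet1 and at -0.52 and -0.41 in HOXA9, and all of these were called lower. On the deposited values S100A8 was at -0.09 in Tet1 and -0.18 in HOXA9, and S100A9 at 0.20 and 0.04, none called. The lower calls of S100A8 and S100A9 thus depended on the scaling. S100A8 lay under the background line in every array, so its differences have no firm size, and the counts of lower genes include it. The counts became 7 higher and 3 lower in Tet1 and 6 higher and 3 lower in HOXA9 with quantile normalization, where 32.6% and 29.7% of all genes were called higher and 33.3% and 34.0% lower. With equal medians 5 were higher and 3 lower in each group, where 21.9% and 20.3% of all genes were called higher and 51.4% and 51.1% lower.

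All but S100P lie on chromosome 1, where RefSeq places S100A6, S100A5, S100A4, S100A3 and S100A2 next to one another among the S100A genes, followed by S100A16. Along this order, S100A10 and S100A11 fell alike in shHMGA2 (log2 -0.38 and -0.37). S100A9, S100A12, S100A8, S100A7A and S100A7 lay between 0.02 and -0.19, none of them called. S100A6, S100A5, S100A4 and S100A3 fell by 0.65, 0.37, 1.18 and 1.19, S100A2 was at -0.05, S100A16 at -0.64, and S100A14, S100A13 and S100A1 between 0.01 and -0.11. S100A9, S100A14, S100A13 and S100A1 were above the background line in control and shHMGA2 and were not called. Lying above that line does not show that a gene is expressed, since LCE1D, a skin barrier gene, read 9.07 in control. The calls therefore did not cover the whole stretch, and whether the falls did cannot be told. S100A2, S100A12, S100A8, S100A7A and S100A7 were under that line in both groups and are not known to be above background. Their lack of a call cannot show that no fall took place there. Whether the falls skip S100A2, between S100A3 and S100A16, thus cannot be told.

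**Figure D4:**
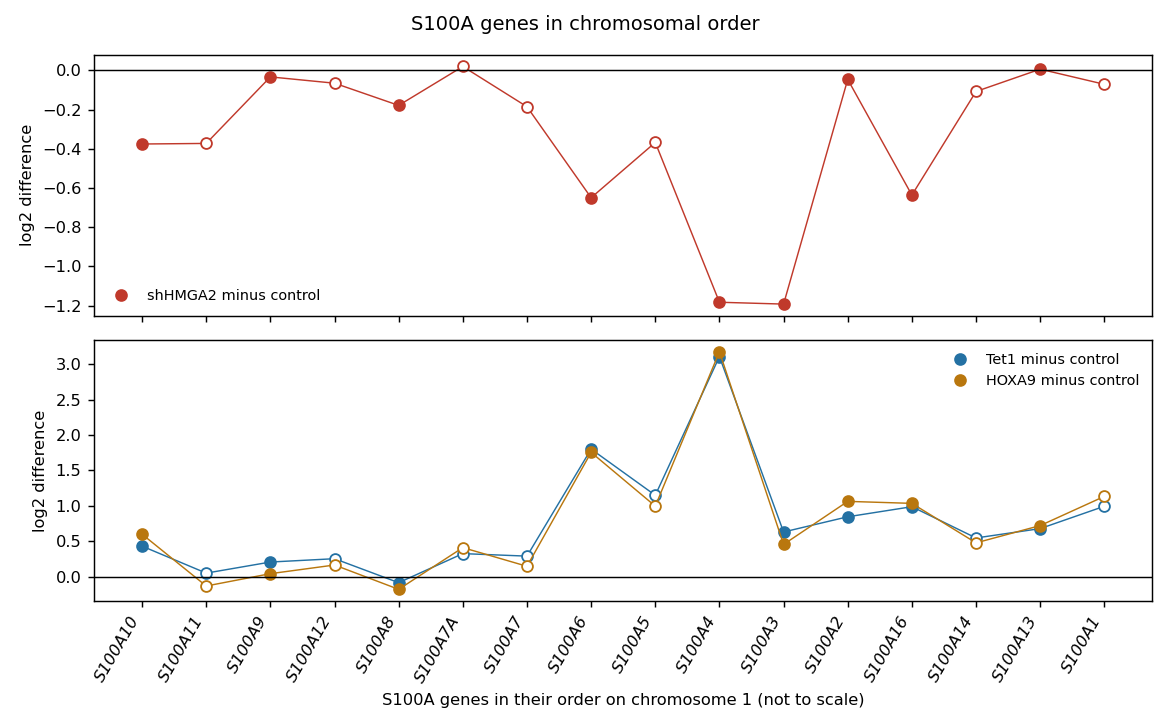
Log2 differences from control (y axis) of 16 S100A genes in their order on chromosome 1 (x axis, not to scale); filled points are among the 10 genes described, open points other S100A genes. The lowest points in shHMGA2 are S100A3 and S100A4 (-1.19 and -1.18), and the highest in Tet1 and HOXA9 is S100A4 (3.11 and 3.18).

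In Tet1 and HOXA9 the difference from control along the same order was largest at S100A4. Its neighbour S100A5, dim in control (5.76), was at 1.15 and 0.99, and S100A1 (6.49 in control) at 0.99 and 1.13. Of the 11 other S100 genes measured, 8 were higher and 0 lower in Tet1, and 6 higher and 1 lower (S100A7L2, log2 -0.23) in HOXA9, against 53.9% and 54.0% of all genes called higher. With quantile normalization these became 3 higher and 2 lower, and 4 higher and 4 lower, and with equal medians 3 and 3, and 4 and 5. S100A5 and S100A1 remained higher under both scalings. With quantile normalization they were at 0.62 and 0.45 in Tet1 and at 0.47 and 0.63 in HOXA9. With equal medians they were at 0.68 and 0.53 in Tet1 and at 0.54 and 0.68 in HOXA9. In shHMGA2 2 of the 11 fell, S100A11 and S100A5, and 0 rose, where 12.6% of all genes were called lower. S100A5 was under the 6.22 line in both control and shHMGA2, and S100A7L2 in all 4 groups, so neither is known to be above background there.

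The epidermal differentiation complex, the cluster of skin barrier genes that lies among the S100A genes on chromosome 1, is largely silent outside skin. In shHMGA2 limma called 0 of 39 of its other genes (1 at an unadjusted p under 0.05), with a median of -0.02, against 26.2% of all genes. In Tet1 34 were higher and 1 lower with a median of 0.64, and in HOXA9 33 and 1 with a median of 0.54. Of all genes 53.9% and 54.0% were called higher. LCE1B, a late cornified envelope gene, was at 1.69 and 1.61 and LCE3D at 1.36 and 1.30, while FLG, or filaggrin, was at -0.26 and -0.25, from 6.39 in control to levels under the 6.22 line. With quantile normalization 22 were higher and 4 lower in Tet1 and 20 and 5 in HOXA9, and with equal medians 18 and 5, and 15 and 6. LCE1B was at 5.20 in control, under the 6.22 line. Of the 39 genes 15 were under that line in control, 19 in shHMGA2 and 8 in Tet1 and in HOXA9. For genes under it, the lack of a call in shHMGA2 cannot show that no fall took place.

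Keratinocyte markers shifted likewise, 6 of 8 higher and 1 lower in both Tet1 and HOXA9 (3 and 0, and 2 and 0, with quantile normalization, 2 and 1 in each with equal medians). All 11 myeloid markers were higher in both groups on the deposited values, with LYZ, under the 6.22 line in control at 5.15, at 1.72 and 1.95. With quantile normalization 8 were higher and 0 lower in Tet1, and 6 and 1 in HOXA9, and with equal medians 5 and 0, and 4 and 0. Their summed level was 10.25 to 10.35 in control, 11.06 to 11.07 in Tet1 and 10.88 to 11.02 in HOXA9, with 5 of 11 under the 6.22 line in control, 2 in Tet1 and 3 in HOXA9. Fibroblast markers were higher in 7 of 8 in both groups (6 of 8 with quantile normalization, 5 of 8 with equal medians). Of the 9 HEK293 markers, 6 were higher and 1 lower in Tet1, and 5 and 2 in HOXA9. With quantile normalization these became 3 and 3, and 2 and 3, and with equal medians 4 and 3, and 2 and 3. Over all genes 53.9% and 54.0% were called higher in Tet1 and HOXA9. These shares became 32.6% and 29.7% with quantile normalization and 21.9% and 20.3% with equal medians. The part of these shifts in the S100 values was not tested.

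Among 21 measured partner proteins of S100 members, 4 rose and 6 fell in shHMGA2, a median of -0.03. Over all genes 13.6% were called higher and 12.6% lower there. IL1A, a cytokine released with S100A13, rose by 1.85 and SYT1, a vesicle calcium sensor in the same release complex, by 1.05. IL1A was at 6.12 in control, under the 6.22 line, so the size of its rise is not firm. AHNAK, a scaffold held by S100A10 and annexin A2, fell by 0.45 and MYH9, the non-muscle myosin heavy chain bound by S100A4, by 0.41. In Tet1 9 partners were higher and 5 lower and in HOXA9 10 and 4, against 53.9% and 54.0% of all genes called higher. The counts were 5 and 4 in each with quantile normalization, and 4 and 12 in each with equal medians. SYT1 was higher by 1.82 and 1.85 and KCNK3, a potassium channel carried by p11, by 1.15 and 1.19. For KCNK3 0.60 and 0.66 were left with quantile normalization and 0.68 and 0.73 with equal medians. MYH10, another non-muscle myosin, was at -1.82 and -1.31 and MDM2, the p53 ligase, at -0.74 and -0.65, with the same signs under both scalings. MYH10 was also lower in Tet1 than in HOXA9 (log2 -0.51, limma adjusted p = 0.022), the 1 partner called between them.

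Of 8 receptors for extracellular S100 proteins, 2 fell in shHMGA2 and 0 rose, where 12.6% of all genes were called lower. TLR4, a receptor for S100A8 and S100A9, fell by 1.24 from 10.44 to 9.20 (SE 0.09), and MCAM by 0.35. In Tet1 3 were higher and 0 lower, and in HOXA9 3 and 1, against 53.9% and 54.0% of all genes called higher. With quantile normalization these became 3 and 3 in Tet1 and 3 and 4 in HOXA9, and with equal medians 2 and 5 in each. NPTN, or neuroplastin, was higher by 0.82 and 0.91 and AGER, the receptor RAGE, by 0.66 and 0.64, of which 0.18 and 0.17 were left for AGER with quantile normalization. TLR4 was lower in HOXA9 (log2 -0.37).

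Of 14 measured genes often induced together with S100A8 and S100A9 in inflammation, 1 rose and 6 fell in shHMGA2, a median of -0.21. Over all genes 13.6% were called higher and 12.6% lower there. IL1B, a fever-inducing cytokine, rose by 1.26 from a control level of 6.06, also under the 6.22 line. IL6, another cytokine, fell by 0.81 and NFKBIA, the NF-kappa-B inhibitor, fell by 0.45. In Tet1 and HOXA9 8 were higher and 2 lower, against 53.9% and 54.0% of all genes called higher. With quantile normalization the counts were 6 and 5, and 5 and 6, and with equal medians 4 and 7, and 2 and 7. CXCL8, which draws neutrophils, stood 2.24 above control in Tet1 and 1.52 in HOXA9. ICAM1, an adhesion molecule, stood 1.54 and 1.66 above it. IL6 was at -0.46 and -0.56 and SAA1, an acute phase protein, at -0.51 and -0.54, with these signs under both other scalings. SAA1 was under the 6.22 line in every group and is not known to be above background in any. CXCL8 was higher in Tet1 than in HOXA9 (log2 0.72, adjusted p = 0.03).

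S100A4 had the widest range of group means among the 10 genes, 4.36 on the log2 scale, followed by S100A6 (2.45), S100A3 (1.82) and S100A16 (1.67), and S100A8 the narrowest (0.18). For S100A2, S100A3, S100A4, S100A6, S100A9, S100A10, S100A16 and S100P the lowest mean was that of shHMGA2. Over the 10 arrays the genes most like S100A4 by Pearson's r were EMP3, a tetraspan membrane protein (0.997), GSDMD, the pore former gasdermin D (0.997), and WBP1L (0.997). EMP3 was at 11.37 in control, 10.95 in shHMGA2, 12.64 in Tet1 and 12.68 in HOXA9. Among the other S100 genes described, S100A6 came closest (r = 0.995, rank 15 of all genes), then S100A16 (0.99, rank 106). The array sets shape these values. On deviations from the group means r with S100A4 was 0.45 for S100A6, 0.73 for S100A16 and 0.46 for EMP3. It was 0.64 for S100P, 0.62 for S100A3, 0.60 for S100A10 and 0.56 for S100A13. For S100A2, S100A8 and S100A9 it was 0.35, 0.15 and -0.16. The order seen over the 10 arrays was thus not kept.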

How the data were processed

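The members and gene lists were chosen with earlier results of these data known. Affymetrix Human Gene 1.0 ST arrays were turned into log2 expression values by the authors, who used RMA and R 2.11, per the submitters' processing notes. RMA corrects background, equalises quantiles and summarises probes. Which arrays were normalized together is not stated in any source used here.

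Of 33297 probe sets, 19460 have 1 platform symbol, 1754 several and 12083 none or no entry. The probe set with the highest mean over 10 arrays was taken for the 769 genes with more than 1. Replicate 3 of Tet1 and HOXA9, an average, was left out. The 4 groups entered 1 model in limma 3.58.1 (R 4.3.3), with 6 residual and, from eBayes, 5.65 prior degrees of freedom, tested on both sides, with Benjamini-Hochberg adjustment over 18417 genes and calls at 0.05. The script was tested on simulated data. Alternatives were 2 other scalings, all 12 columns, a dim filter, the compared groups alone, the mean of probe sets, a variance trend, a replicate block and leaving out each array. Beside the 10 genes, the text names of each list up to 2 called genes per direction and comparison with the largest change, and the 3 genes most like the one with the widest range. Promoter sequences are RefSeq's (GRCh38.p14).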

Additional observations from a re-analysis of the deposited data

How the results depend on the processing

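Across 18 alternatives the number of S100 genes called was 6 to 7 in shHMGA2, 0 between Tet1 and HOXA9, 7 to 10 in Tet1 and 6 to 9 in HOXA9 against control. All genes called between Tet1 and HOXA9, 80 in all, became 145 with quantile normalization, 1112 with all 12 columns counted, 143 with the compared groups only, and 11 to 112 without any 1 array. It was 11 without Tet1 replicate 1, 18 without Tet1 replicate 2 and 17 without HOXA9 replicate 2. Fits without an array of Tet1 or HOXA9 leave 1 array there, assumed to vary like the other groups. The share of higher among called genes was 69.9% in Tet1 and 71.4% in HOXA9 against control, 49.4% and 46.6% with quantile normalization and 29.9% and 28.4% with equal medians. Between Tet1 and HOXA9 it was 26.2%, and 37.9% with quantile normalization.

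Signs that turned belonged mostly to differences near 0. In shHMGA2 S100A13 became -0.030 with quantile normalization, -0.025 with equal medians, and ran from -0.051 to 0.049 when 1 array was left out. There S100A2 ran from -0.088 to 0.015 and S100A9 from -0.114 to 0.011. Between Tet1 and HOXA9 the same step gave -0.159 to 0.020 for S100A4, -0.076 to 0.169 for S100A6, -0.094 to 0.0082 for S100A13, -0.101 to 0.0069 for S100A16 and -0.030 to 0.246 for S100P. Against control S100A9 became -0.35 and -0.26 in Tet1 and -0.52 and -0.41 in HOXA9 (quantile, equal medians), and ran from -0.049 to 0.131 in HOXA9 without 1 array. With equal medians S100A10 became -0.037 in Tet1 and S100A3 -0.0015 in HOXA9.

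Replicate numbers are shared by the groups, but same-numbered control and shHMGA2 arrays deviated together with r of only 0.16, 0.14 and 0.0017, and replicate 3 did not match its own number best. Tet1 and HOXA9 arrays gave 0.168 for both numbers, each matching its own best. With 2 arrays per group the deviations from the group mean mirror each other, so both numbers must give the same r. That each matched its own best follows from the positive sign of r, so the 2 pairs are not separate evidence. The numbers were not taken to pair arrays. With the number as a block 7 S100 genes were called in shHMGA2 (S100A8 at limma adjusted p = 0.0499), 0 between Tet1 and HOXA9, 7 in Tet1 and 8 in HOXA9, and the block changed no other call of these genes. The cause of these changes was not tested. Dim probe sets such as S100A8 limit what can be read, since no detection calls accompany the values.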
